A study of Caenorhabditis elegans with 36 samples.

Results

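The 304 genes described here are pseudogenes of *C. elegans* that carried small RNAs in wild-type adults. They were chosen from 31106 counted features as those with the biotype pseudogene in the WBcel235 annotation, a symbol made only of a clone name and a number (such as K08B4.5), and a mean of at least 10 counts per 1000000 counts of the library (RPM) in the 3 wild-type input libraries. Of 2102 pseudogenes, 1519 had a symbol of this kind, and 1215 of those lay under the threshold. Just inside it were Y73B3A.16 at 10.3 RPM and B0513.6 and C36C9.t3, both at 10.5 RPM, and just outside were C18C4.4 at 9.98 RPM and K10F12.1 and Y102A5C.37, both at 9.80 RPM. RefSeq lists 301 of the 304 as pseudogenes and 3 as tRNA pseudogenes. Since the wild-type inputs chose the genes, differences from the wild-type inputs are given as a description and nothing is read from them.

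Small RNAs were sequenced from whole 1-day-old adults, before (input) and after immunoprecipitation (IP) of the Argonaute HRDE-1, in 6 genotypes with 3 replicates each, or 36 libraries in 12 conditions. All strains, wild-type included, carried hrde-1(tor125[GFP::3xFLAG::hrde-1]), a tagged *hrde-1* at its own locus on chromosome III, and were grown for 68 h at 20 °C. The *hrde-2* mutant carried hrde-2/enri-3(qe20), the *simr-1* mutant simr-1(cmp36), and *mut-2* and *mut-2; hrde-2* carried mut-2(ne298), the latter with hrde-2/enri-3(qe20). The *simr-1 mut-2* strain carried simr-1(cmp36) with a different *mut-2* allele, mut-2(cmp306), so its comparison with *mut-2* is also a comparison between alleles. Each genotype was 1 strain, and each library was made from about 100000 pooled animals.

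A pseudogene is a copy of a gene that no longer encodes the intact protein, and many in *C. elegans* are transcribed and targeted by the germline RNA silencing pathways. There, RNA-dependent RNA polymerases copy a target RNA into antisense small RNAs, which are loaded into worm-specific Argonautes (WAGOs). HRDE-1 is the nuclear WAGO of the germline and carries silencing across generations. MUT-2 (also called RDE-3) is a nucleotidyltransferase that marks target RNAs as templates for small RNA synthesis, SIMR-1 is a Tudor domain protein of germ granules, and HRDE-2 is an HRDE-1 interactor. A separate pathway, through the Argonaute CSR-1, uses small RNAs from germline-expressed genes.

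The libraries held 4275760 to 10306745 counts in inputs and 8206593 to 17448124 in IPs, so 10 RPM stood for at least 42.8 counts. Reads were counted without regard to strand. RPM are shares of a library, so a level on HRDE-1 is relative to the other counts of that IP, not an amount bound. Structural RNA genes (rRNA, tRNA, snRNA and snoRNA) took 8.31% to 34.9% of input counts and 1.17% to 3.19% of IP counts. Small RNAs of the *simr-1* gene were at 25.02 to 35.8 RPM in the inputs of the 2 strains with a *simr-1* mutation and at 111 to 391 RPM in the others. Small RNAs of *mut-2* and *hrde-2* were present in every strain, so they do not check those labels. Worms were grown, and lysates made, in biological triplicate for each strain, per the methods.

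The pseudogenes were spread over the 6 chromosomes and lay mostly away from chromosome centres. Chromosome V held 63 of them (20.7%), against 40.8% of the 1215 pseudogenes under 10 RPM, and X held 50 (16.4%) against 7.65%. The middle of the chromosomes, with each divided into 3 equal parts, held 16.8%, near the 18.4% of the pseudogenes under 10 RPM. It held 11.8% of the 76 pseudogenes with a gene class name and at least 10 RPM. For the 2257 protein-coding genes with a clone name and at least 10 RPM the share was 34.8%. Their median exon length was 993 bp, with a range from 68 to 6473 bp, against 564 bp for the pseudogenes under 10 RPM. An exon of 29 of the 304 (9.54%) overlapped another gene, whose reads cannot be told apart from theirs, and 23 lay inside the span of a protein-coding gene. For 103 of them the nearest other member was within 10000 bp. The share of their sequence that recurs elsewhere in the genome was not analysed here, so reads shared with near-identical copies remain possible for any of them.

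Together the pseudogenes took 10.3% ± 0.72 (SD, n = 3) of all counts in wild-type inputs and 13.2% ± 0.21 in wild-type IPs. In the *hrde-2* mutant the inputs held 10.9% ± 0.58 and the IPs 2.45% ± 0.19. The *simr-1* mutant was at 9.42% ± 1.08 in inputs and 9.01% ± 0.08 in IPs. The *mut-2* inputs fell to 1.67% ± 0.07, while the *mut-2* IPs held 7.13% ± 0.10. The double mutants held little in either kind of library, with 1.59% ± 0.13 in *mut-2; hrde-2* inputs and 1.13% ± 0.01 in the IPs. The *simr-1 mut-2* libraries held 1.01% ± 0.11 in inputs and 1.54% ± 0.09 in IPs. These shares are of whole-animal RNA, where fewer cells of a type and less RNA per cell cannot be told apart.

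**Figure D1:**
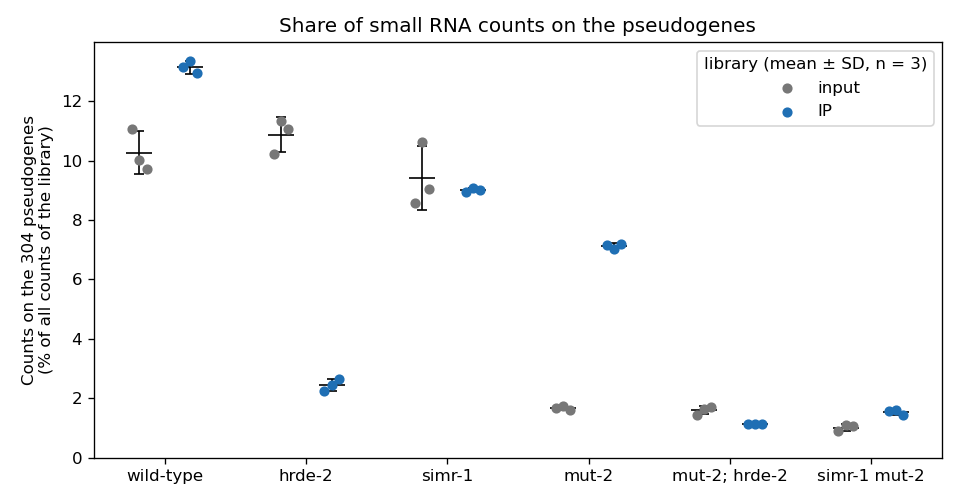
Percentage of all counts of a library that fell on the 304 pseudogenes, for each of the 36 libraries (points) with the mean and SD of 3 replicates (bars), by genotype. The *mut-2* IPs stand at 7.01% to 7.19%, over their own inputs at 1.60% to 1.74%, and the IPs of both double mutants stand at 1.12% to 1.61%.

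In RPM, most of the pseudogenes stood higher in the wild-type HRDE-1 IPs than in the inputs, which is a description. The median level over all 304 was 52.1 RPM in inputs and 77.1 RPM in IPs, and the IP was above the input in all 3 replicates for 218 of them and below it in all 3 for 64. Every IP lay above every input for 184 and below for 61, against 28.9% and 43.4% of all features tested. Structural RNA took 13.9% of wild-type input counts and 1.31% of wild-type IP counts, and its part in these RPM differences was not tested. A call is a 2-fold difference with an adjusted p of at most 0.05 in edgeR's quasi-likelihood test with Benjamini-Hochberg adjustment over all features tested, unless another test is named. By this measure, 160 of the 304 were higher in the IP and 42 were lower, while 28.9% of all features tested were called higher and 25.3% lower. With library size scaling in place of TMM normalization, the counts were 109 and 49. The median log2 fold change was 1.08 for the pseudogenes and 0.15 for all features, and nothing is read from these counts because the wild-type inputs chose the genes.

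A few pseudogenes carried much of the signal. In wild-type IPs, 15 of the 304 held the larger part of the members' RPM, and the 10 highest held 41.4%. Y39E4B.14 (WBGene00014884, chromosome III, 13162475 to 13164864), whose exons overlap the noncoding RNA gene Y39E4B.16, was highest both in RPM and per length, at 11179 RPM per kb of exon. Its 3 wild-type IPs were at 8644, 7946 and 8596 RPM and its inputs at 6432, 6239 and 6264 RPM. K08B4.5 (WBGene00019517, chromosome IV, 6086350 to 6089404) followed in RPM, with IPs at 6056, 7964 and 6667 RPM and inputs at 4372, 5156 and 4340 RPM. K08E7.10 (chromosome IV, 12561367 to 12563543), with only 588 bp of exons, was next after Y39E4B.14 per length, at 8179 RPM per kb. Its IPs at 4783, 4676 and 4970 RPM all lay above its inputs at 1602, 1920 and 1623 RPM. The others among the 8 highest in wild-type IPs were F37H8.2, whose exons overlap the antisense RNA gene anr-35, C01G6.10, F32A11.5, Y46H3C.6 and Y71G12B.28.

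The most abundant pseudogene in the inputs was poorly represented on HRDE-1. Y17D7C.3 (WBGene00045366, chromosome V, 18720589 to 18723771) stood at 12453, 8559 and 9159 RPM in wild-type inputs and at 788, 1371 and 1094 RPM in IPs. W04B5.2 (chromosome III, 2424355 to 2427738) was lower still on HRDE-1, with 4232, 2104 and 2712 RPM in inputs and 61.0, 55.9 and 71.3 RPM in IPs. Its neighbour W04B5.1 went from 2703, 1011 and 1779 RPM to 22.3, 27.4 and 30.4 RPM. Y59H11AR.6, whose exons overlap 2 noncoding RNA genes, fell from a mean of 3612 RPM to 368 RPM. Inputs and IPs of these pseudogenes did not overlap, and over all features tested every IP lay below every input for 43.4%.

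In all, 17 of the 304 lay over 8-fold below their input in every wild-type IP, a group chosen from these values and therefore not tested in wild-type. Besides W04B5.1 and W04B5.2 they included F56D6.16, F56D6.17, ZK380.5, F55A4.4, Y43F8B.8 and Y17D7C.4. Their levels in wild-type inputs ran from 13.8 to 3016 RPM with a median of 303 RPM, and in wild-type IPs from 0.147 to 62.7 RPM with a median of 5.41 RPM. In the mutants the IPs also lay below the inputs for most of the 17. IP was called lower than input for 16 of the 17 in *hrde-2* and for 17 of the 17 in *simr-1*, against 41.9% and 21.6% of all features tested. In *mut-2* it was called lower for 14 of the 14 that passed the filter on low counts, against 22.3% of all features. Over the 17, the median of log2 IP over input, with 1 RPM added to both, was -5.12 in wild-type, -4.30 in *hrde-2*, -5.09 in *simr-1* and -2.17 in *mut-2*, where the inputs were low. Against wild-type, the enrichment difference in *hrde-2* was called positive for 8 of the 17 and negative for 1, while 33.7% and 36.1% of all features were. Between *hrde-2* and wild-type IPs, 6 were called higher, 2 lower and 7 neither way, and 2 were not tested. Over all features 36.1% were called higher and 45.1% lower there. The wild-type values in these contrasts chose the group, so they are a description. F55A4.4 (chromosome X, 1024646 to 1025838) is an example, with *hrde-2* inputs at 401, 513 and 467 RPM and IPs at 11.4, 7.48 and 13.4 RPM. The log2 difference was -5.69 ± 0.21 (SE, adjusted p 5.5e-07). Along with F57G8.14 and Y59H11AR.6, it was among the pseudogenes with the lowest IP-to-input ratios in the *hrde-2* mutant. Without *mut-2* the small RNAs of the 17 were at low levels, with a median of 7.95 RPM in *mut-2* inputs. Y40H7A.9 was the exception, with *mut-2* inputs at 56.4, 59.6 and 61.1 RPM over wild-type inputs of 12.5, 20.1 and 9.02 RPM.

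**Figure D2:**
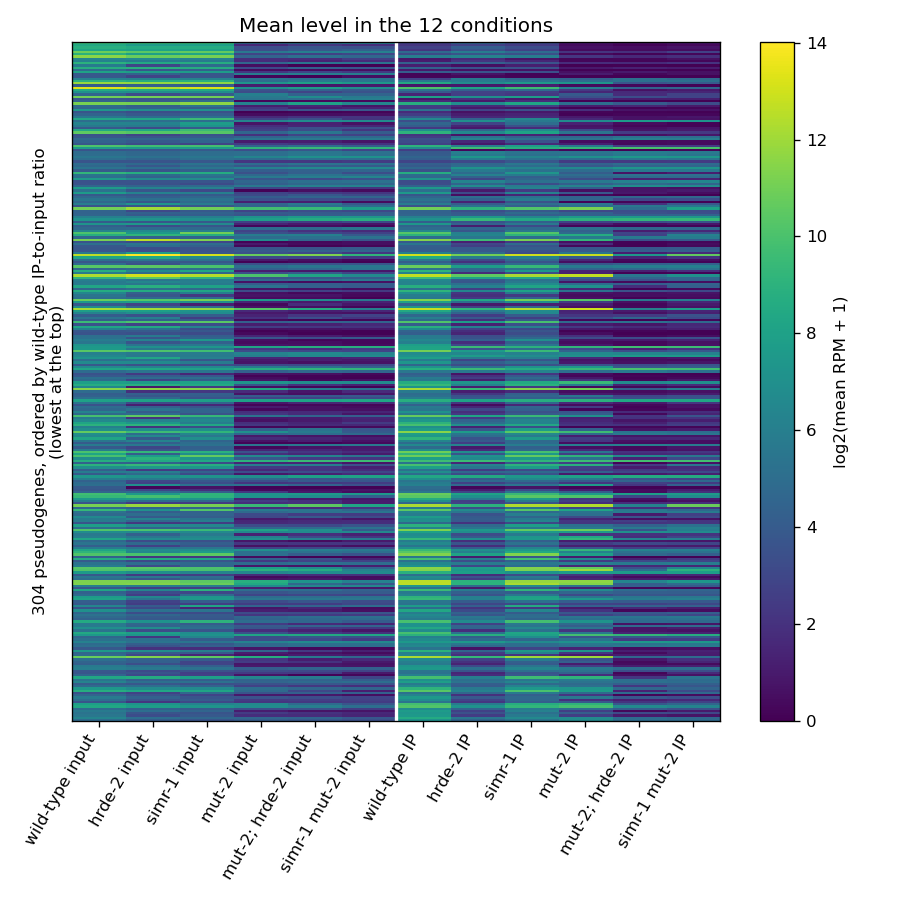
Mean RPM of each of the 304 pseudogenes (rows) in the 12 conditions (columns, inputs on the left and IPs on the right), as log2(mean RPM + 1). Rows are ordered by the wild-type ratio of IP to input, so the rows at the top are high in wild-type, *hrde-2* and *simr-1* inputs and low in the IPs, and the 3 input columns with a *mut-2* mutation are darker for most rows than the other 3.

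Loss of *hrde-2* lowered the level of most pseudogenes on HRDE-1. Over all 304, the median level was 77.1 RPM in wild-type IPs and 16.8 RPM in *hrde-2* IPs. Of the 302 that passed the filter on low counts, 241 were called lower and 24 higher in the *hrde-2* IPs, against 45.1% of all features tested called lower and 36.1% called higher. The median log2 fold change was -2.99 for the pseudogenes and -0.42 for all features. The 75 tested pseudogenes with a gene class name gave 55 lower and 8 higher, with a median of -3.16. The 2247 tested protein-coding genes with a clone name gave 978 lower and 874 higher, with a median of -0.06. The IPs did not choose the genes, but the wild-type IPs come from the same lysates as the inputs that did. The share of structural RNA was 1.31% in wild-type IPs and 2.38% in *hrde-2* IPs, and its part in the differences was not tested.

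The highest pseudogenes of the wild-type IPs were among those that fell. The wild-type IPs chose these genes, so their falls from those IPs are a description. K08B4.5 went from 6056, 7964 and 6667 RPM in wild-type IPs to 636, 560 and 644 RPM in *hrde-2* IPs. The log2 fold change was -3.82 ± 0.20 (SE, adjusted p 1.1e-09). Its inputs were similar in both genotypes, at 4604, 4045 and 4112 RPM in *hrde-2*. C01G6.10 (chromosome II, 9289506 to 9291539) fell in the same way, from 5823, 6670 and 6088 RPM to 501, 477 and 559 RPM, by 3.93 ± 0.19 on the log2 scale (adjusted p 7.2e-10). For Y39E4B.14 the IP fell from 8644, 7946 and 8596 RPM to 1750, 2078 and 2359 RPM, while the inputs rose from a mean of 6312 to 16454 RPM. Neither the IPs nor the inputs of Y39E4B.14 overlapped between these genotypes. Over all features tested, every *hrde-2* IP lay above every wild-type IP for 42.8% and below for 44.8%. In inputs these shares were 7.91% and 27.1%.

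The 3 largest falls had another form, since the small RNAs were low in the *hrde-2* inputs as well. Y73B3A.7 (chromosome X, 135793 to 138075) was at 152, 112 and 152 RPM in wild-type IPs and at 0.415, 1.98 and 1.10 RPM in *hrde-2* IPs, with *hrde-2* inputs at 1.38, 1.25 and 0.120 RPM. Y68A4A.12 (chromosome V, 17209065 to 17209955) went from 130, 93.5 and 138 RPM to 0.581, 2.05 and 1.95 RPM in the IPs. Y37H2B.1 (chromosome V, 18227037 to 18231455) went from 27.3, 32.6 and 33.97 RPM to 0.083, 0.282 and 0.244 RPM. The *hrde-2* IPs of these 3 genes held 1 to 29 counts per library, so their levels there are known only roughly. Of the 241 that fell in the IP, 73 were also called lower in the *hrde-2* inputs, 11 were called higher there and 157 were neither, while 10.0% of all features were called lower and 4.06% higher. Nothing is read from these counts, since the wild-type inputs chose the genes.

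**Figure D3:**
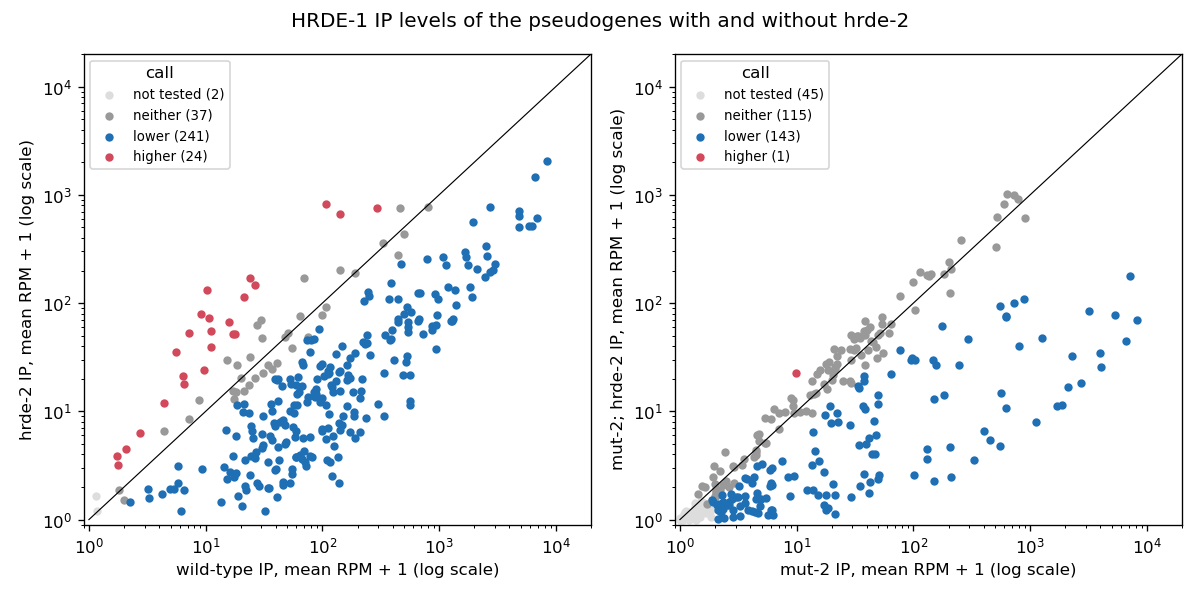
Mean IP level of each of the 304 pseudogenes, as RPM + 1 on log axes, in wild-type and *hrde-2* (left) and in *mut-2; hrde-2* beside *mut-2* (right), coloured by the call between the IP libraries. On the left, 241 points lie below the diagonal as lower calls and 24 above it as higher calls. On the right, 143 are lower and 1 is higher.

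The *hrde-2* IPs differed from their own inputs in the opposite direction to wild-type. IP was called lower than input for 198 of the 302 tested pseudogenes and higher for 29, against 41.9% and 28.5% of all features. The median log2 fold change was -2.21 for the pseudogenes and -0.35 for all features. The median of the per-gene ratio over all 304, taken in each replicate as log2 of IP over input with 1 RPM added to both, was -1.73 ± 0.05 (SD, n = 3) in *hrde-2*. It was 0.72 ± 0.06 in wild-type, 0.31 ± 0.14 in *simr-1*, 0.58 ± 0.05 in *mut-2*, 0.19 ± 0.09 in *simr-1 mut-2* and -0.16 ± 0.12 for *mut-2; hrde-2*. The difference in enrichment between *hrde-2* and wild-type was called negative for 215 pseudogenes and positive for 30, against 36.1% and 33.7% of all features, and this contrast includes the inputs that chose the genes.

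**Figure D4:**
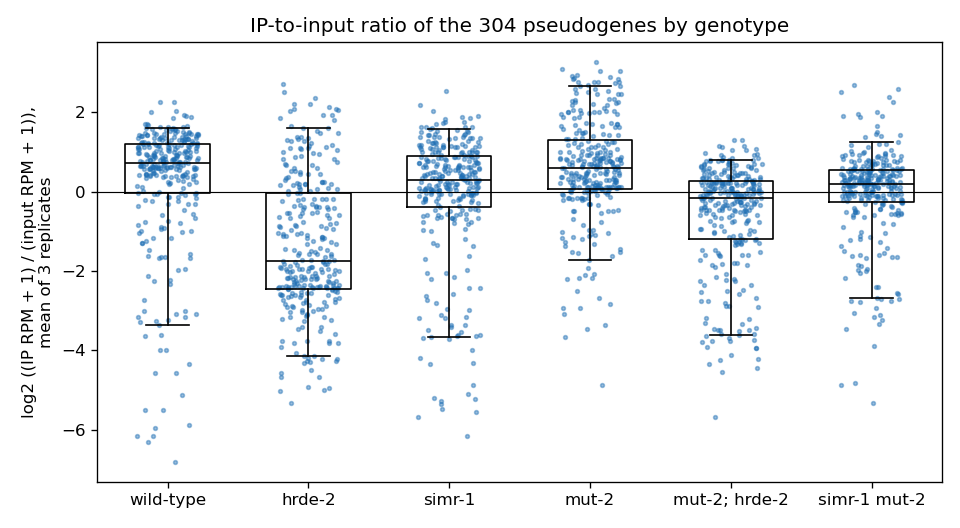
Ratio of IP to input for each of the 304 pseudogenes (points), as log2 of RPM + 1 and averaged over 3 replicates, by genotype. Boxes span the quartiles with the median as a line, and whiskers reach the percentiles 5 and 95. The medians are 0.73 in wild-type, -1.75 in *hrde-2*, 0.29 in *simr-1*, 0.61 in *mut-2*, 0.20 in *simr-1 mut-2*, and -0.16 for *mut-2; hrde-2*.

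A minority of the pseudogenes rose on HRDE-1 without *hrde-2*. Of the 24 called higher, 18 reached at least 20 RPM in the *hrde-2* IPs. C06A1.4 (WBGene00014667, chromosome II, 10574842 to 10578193) had the highest level among them, with 110, 110 and 98.5 RPM in wild-type IPs and 787, 890 and 803 RPM in *hrde-2* IPs. The log2 fold change was 2.64 ± 0.19 (SE, adjusted p 9.7e-09), while the inputs overlapped, at 182, 282 and 181 RPM in wild-type and 204, 179 and 208 RPM in *hrde-2*. M04F3.6 (chromosome I, 4761931 to 4762359), a single exon of 429 bp, rose most, from 7.57, 12.03 and 8.10 RPM to 155, 121 and 117 RPM. Its log2 fold change was 3.51 ± 0.22 (adjusted p 4e-09). Y73B3A.16 (chromosome X, 78429 to 80400) rose from 7.20, 8.57 and 8.36 RPM to 70.4, 87.3 and 76.2 RPM, by 2.96 ± 0.21 (adjusted p 1.1e-08). It had the highest IP-to-input ratio of all 304 in *hrde-2*, followed by T08D2.3 and Y46H3C.4.

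None of these genes overlapped between the wild-type and the *hrde-2* IPs. F07H5.5 (chromosome II, 8787770 to 8789716) also rose, from 4.86, 7.67 and 6.03 RPM to 55.2, 47.3 and 52.8 RPM, although it stayed under its *hrde-2* inputs of 81.5, 71.6 and 74.4 RPM. The 6 pseudogenes that rose but stayed under 20 RPM, such as F56D6.17 and F57G8.14, had a median of 1.41 RPM in wild-type IPs and 4.41 RPM in *hrde-2* IPs. Of the 24 that rose, 23 were called neither higher nor lower in the *hrde-2* inputs, and C06E4.22 was called lower. Without wild-type IP replicate 1 the number called higher was 13, and without wild-type IP replicate 3 it was also 13.

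**Figure D5:**
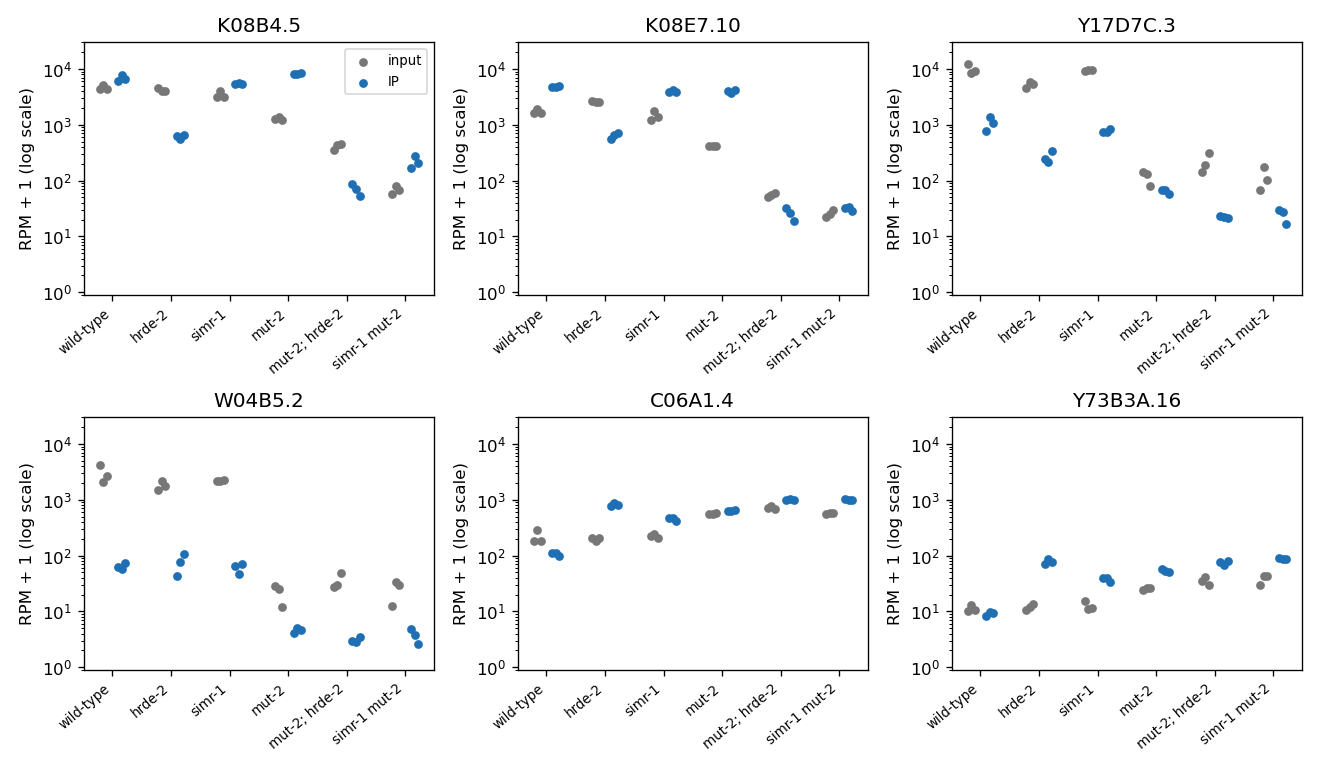
RPM + 1 (log axis) of 6 pseudogenes in each of the 36 libraries, inputs in grey and IPs in blue, by genotype. K08B4.5 and K08E7.10 have *mut-2* IPs over their inputs and low values in both double mutants, Y17D7C.3 and W04B5.2 have IPs below inputs in each genotype, and C06A1.4 and Y73B3A.16 are higher in the *hrde-2* IPs than in the wild-type IPs.

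Neighbouring pseudogenes could move in opposite directions. Of 62 pairs of consecutive members no more than 10000 bp apart, both fell in the *hrde-2* IPs in 38, both rose in 2, and in 6 one was called higher and the other lower. Of all members tested, 79.8% were called lower and 7.95% higher in this comparison, beside 45.1% and 36.1% of all features. Whether neighbours differ from other pairs of members was not tested. C09E7.5 and C09E7.6 lie 238 bp apart on chromosome III (6538101 to 6546425). C09E7.5 was at 149, 207 and 159 RPM in wild-type IPs and at 21.8, 18.1 and 18.0 RPM in *hrde-2* IPs. C09E7.6 was at 15.8, 21.5 and 13.4 RPM and then at 53.5, 50.5 and 48.0 RPM. Both were chosen here for this contrast after their values were seen. In *mut-2* inputs C09E7.5 dropped to 3.12, 1.31 and 0.860 RPM, from 155, 156 and 150 RPM in wild-type, while C09E7.6 held 27.9, 28.1 and 29.1 RPM, beside 25.4, 40.3 and 28.1 RPM in wild-type.

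The left end of chromosome X held calls in both directions over a longer stretch. Within its first 200000 bp lay 13 of the 304 pseudogenes, of which 7 fell, 3 rose and 3 were called neither way in the *hrde-2* IPs. Over all members tested 79.8% fell and 7.95% rose, and over all features 45.1% and 36.1%. The stretch was chosen after the calls were seen, so this is a description. Y73B3A.17 and Y73B3A.16 rose in the *hrde-2* IPs, by 2.55 ± 0.19 and 2.96 ± 0.21 on the log2 scale, and T08D2.3 rose by 1.05 ± 0.18. Between and around them, Y73B3A.3 (log2 fold change -2.73 ± 0.27), Y73B3A.13 (-1.18), Y73B3A.7, Y73B3A.9 (-3.35 ± 0.20) and T08D2.2 (-1.47) fell. So did CE7X_3.1 (-1.40) and cTel7X.1 (-2.80), whose spans overlap at the chromosome end. Y35H6.3, Y73B3A.18 and Y73B3A.2 were called neither way, with log2 values of 0.67, -0.72 and -0.72.

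Loss of *simr-1* also lowered the level of many pseudogenes on HRDE-1, a comparison that shares the wild-type IPs with that of *hrde-2*. The median over all 304 was 36.6 RPM in *simr-1* IPs. Of 302 tested, 176 were called lower than in wild-type IPs and 12 higher, against 35.1% and 27.2% of all features, with a median log2 fold change of -1.27 beside -0.26 for all features. Y73B3A.7 fell from 152, 112 and 152 RPM to 4.38, 4.07 and 3.90 RPM, by 5.39 ± 0.19 (SE, adjusted p 3.2e-07). Y50E8A.14 (chromosome V, 14758785 to 14765831) fell from 73.5, 40.9 and 42.4 RPM to 2.69, 1.72 and 2.14 RPM, and Y37H2B.1 to 0.636, 0.516 and 0.764 RPM, on 9 or 10 counts. By contrast, K08B4.5 held 5452, 5639 and 5496 RPM in *simr-1* IPs and was not called. The 3 largest rises were M04F3.6, Y73B3A.16 and C06A1.4, and C06A1.4 reached 471, 462 and 422 RPM, between its wild-type and *hrde-2* IP levels.

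Against their own inputs, the *simr-1* IPs gave no single direction. Of 303 tested, 38 were called higher and 65 lower, against 8.42% and 21.6% of all features. With library size scaling in place of TMM normalization the counts turned to 69 higher and 52 lower, and the median of the pseudogenes moved from -0.04 to 0.30.

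In the *mut-2* mutant the level of most pseudogenes on HRDE-1 was lower than in wild-type. In the inputs, the median over all 304 was 8.45 RPM in *mut-2*, and 248 were called lower and 4 higher than in wild-type inputs, against 33.1% and 11.1% of all features. Nothing is read from that contrast, which uses the libraries that chose the genes. Without wild-type input replicate 1 the number higher was 2, and without wild-type input replicate 3 it was 1. In the *mut-2* IPs the median over all 304 was 12.7 RPM. Of 301 tested, 238 were called lower in *mut-2* IPs than in wild-type IPs and 16 higher, against 44.1% and 34% of all features, with a median log2 fold change of -3.57 beside -0.32. Y68A4A.12 and Y73B3A.7 dropped to at most 4 and 5 counts per library, and F47B7.6 (chromosome X, 3769731 to 3770643) from 708, 433 and 554 RPM to 0.797, 2.53 and 1.14 RPM. The rises were led by M04F3.6, at 109, 108 and 124 RPM (log2 fold change 3.14 ± 0.19, adjusted p 3.3e-07), C06E4.22 and Y73B3A.16. The number called higher was 10 without wild-type IP replicate 1, 10 without replicate 2 and 9 without replicate 3.

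For a set of pseudogenes, the small RNAs left in *mut-2* took a larger share of the IPs than of the inputs. Of the 266 that passed the filter, 104 were higher in the *mut-2* IPs than in the *mut-2* inputs and 35 lower, against 13.4% and 22.3% of all features. Without *mut-2* input replicate 2 the number called lower was 23. The median log2 fold change was 0.71 beside -0.01. The 10 highest pseudogenes held 64.3% of the members' RPM in *mut-2* IPs, against 49.0% in *mut-2* inputs. K08E7.10 had the largest mean ratio of all 304, with *mut-2* inputs at 417, 424 and 415 RPM and IPs at 4042, 3756 and 4293 RPM. The log2 fold change was 3.11 ± 0.11 (SE, adjusted p 1e-09). K08B4.5 went from 1247, 1357 and 1232 RPM to 8266, 8145 and 8382 RPM, by 2.53 ± 0.10 (adjusted p 2.5e-09). In the paper's binding assay HRDE-1 carried less small RNA in *mut-2* than in wild-type, and RPM do not show such a difference in amount. In RPM the *mut-2* IPs of K08B4.5 were above its wild-type IPs, but it was not called higher in that comparison. There the median of the pseudogenes was -3.57 with TMM normalization and -3.07 with library size scaling.

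The level in the *mut-2* IPs reached at least 1000 RPM for 14 pseudogenes, which is a description of those values. They were K08B4.5, Y39E4B.14, F37H8.2, Y71G12B.28, K08E7.10, F32A11.5, C01G6.10, Y46H3C.6, F23D12.9, T07D3.3, Y48G1BM.8, Y60A9A.3, Y52B11A.18 and F46F2.4. Together they held 0.859% of *mut-2* input counts and 5.17% of *mut-2* IP counts, and 6.26% of wild-type IP counts. Their median level was 2162 RPM in wild-type inputs and 429 RPM in *mut-2* inputs. In the double mutants' IPs they held 0.065% of the counts without *hrde-2* and 0.501% without *simr-1*.

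With the *hrde-2* mutation added to *mut-2*, levels on HRDE-1 fell for these 14 and for many other pseudogenes. Over all 304, the median was 12.7 RPM in *mut-2* IPs and 3.00 RPM in *mut-2; hrde-2* IPs. Of 259 tested, 143 were called lower and 1 higher, against 28.9% and 0.412% of all features, with a median log2 fold change of -1.33 beside -0.10. No library of this comparison chose the 304 genes. The *mut-2* IPs did choose the 14, so the falls of those from the *mut-2* IPs are a description. K08E7.10, Y60A9A.3 and F46F2.4, named as the 3 largest falls, are among the 14. K08E7.10 dropped from 4042, 3756 and 4293 RPM to 30.98, 24.9 and 18.0 RPM, by 7.59 ± 0.16 (SE, adjusted p 1.5e-13). Y60A9A.3 (chromosome X, 14375868 to 14376499) dropped from 1851, 1838 and 1939 RPM to 13.6, 9.27 and 8.06 RPM, by 7.74 ± 0.13 (adjusted p 2.7e-14). F46F2.4 (chromosome X, 15257597 to 15259048) dropped from 1789, 1669 and 1607 RPM to 15.1, 8.56 and 6.71 RPM, by 7.61 ± 0.18 (adjusted p 6.2e-13). The rule that named these 3 genes required that the IPs of the genotypes not overlap. Over all features tested, every *mut-2; hrde-2* IP lay above every *mut-2* IP for 43.9% and below for 33.9%.

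In the inputs of the same animals fewer pseudogenes were called. Of 228 tested, 37 were lower and 3 higher in *mut-2; hrde-2* inputs than in *mut-2* inputs, against 6.21% and 0.343% of all features. With library size scaling the counts were 28 and 11, and the median log2 fold change moved from -0.19 to 0.10. Of the 14 pseudogenes with at least 1000 RPM in *mut-2* IPs, 9 were called lower in these inputs and 5 neither way. Their median was 429 RPM in *mut-2* inputs and 139 RPM in *mut-2; hrde-2* inputs. The *mut-2* IPs that chose the 14 come from the same lysates as the *mut-2* inputs, so this is a description. K08E7.10 inputs fell from 417, 424 and 415 RPM to 49.4, 54.0 and 58.1 RPM, so its IP and input both fell. Y71G12B.28 (chromosome I, 1828079 to 1831929) differed from it. Its inputs were at 722, 811 and 642 RPM in *mut-2* and at 1187, 1512 and 1655 RPM in *mut-2; hrde-2*, while its IPs fell from 5338, 5333 and 5288 RPM to 83.6, 74.8 and 72.4 RPM. The fall of the IP was 6.35 ± 0.08 on the log2 scale (adjusted p 3e-15), and the input was not called. Y39E4B.14 behaved alike, with inputs at 1769, 1904 and 1575 RPM and then 2045, 2463 and 2761 RPM, and IPs at 7196, 7413 and 6940 RPM and then 165, 192 and 171 RPM.

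The 1 pseudogene that rose in *mut-2; hrde-2* IPs was F41G4.5 (chromosome X, 16830673 to 16832740). Its IPs were at 8.12, 9.45 and 8.93 RPM in *mut-2* and at 18.7, 20.8 and 25.1 RPM in the double mutant, a log2 fold change of 1.04 ± 0.14 (adjusted p 2.2e-05). Without *mut-2* IP replicate 1 or *mut-2; hrde-2* IP replicate 3 the change was 0.93, under 2-fold. The number called higher was 2 without *mut-2* IP replicate 3 and also 2 without *mut-2; hrde-2* IP replicate 1. DESeq2 called 2 higher.

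IP was lower than input for 83 of 231 tested pseudogenes in *mut-2; hrde-2* and higher for 10, against 28.9% and 2.96% of all features. The difference in enrichment from *mut-2* was called negative for 119 of 271 and positive for 1, against 21.4% and 1.74% of all features. F07H5.5 was the positive one, at 1.18 ± 0.17 on the log2 scale (adjusted p 7.1e-05). The number positive was 2 without *mut-2; hrde-2* input replicate 1 and also without *mut-2; hrde-2* IP replicate 2. Of 241 pseudogenes lower in *hrde-2* against wild-type IPs and 143 lower in *mut-2; hrde-2* against *mut-2* IPs, comparisons with no library in common, 138 were the same genes, 57.3% of the former and 96.5% of the latter. The lower calls in *hrde-2* took 79.8% of all members tested there, and 36 of the 241 did not pass the filter in the other comparison.

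In *simr-1 mut-2* the IPs were also lower than in *mut-2*, and some pseudogenes stayed above their inputs. The median over all 304 was 4.38 RPM. Of 262 tested, 137 were called lower and 2 higher, against 24.3% and 5.02% of all features, with a median log2 fold change of -1.18 beside -0.01. K08E7.10 dropped to 31.2, 32.3 and 27.9 RPM, by 7.40 ± 0.15 (SE, adjusted p 1.9e-09). F21D9.6 (chromosome V, 19242878 to 19244988), inside the span of the gene str-81, dropped from 147, 131 and 169 RPM to 1.32, 1.92 and 1.43 RPM, and C01G6.10 from 2805, 2621 and 2834 RPM to 24.1, 36.5 and 29.1 RPM. Y71G12B.28 kept more, at 1717, 2084 and 1594 RPM, and these IPs lay above its inputs of 220, 367 and 314 RPM, by 2.48 ± 0.17 (adjusted p 1.2e-05). Both comparisons are with a strain that carries the other *mut-2* allele, so *simr-1* and the allele cannot be told apart.

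The pseudogenes called higher in *simr-1 mut-2* IPs were W02A2.4 and Y71A12B.19, and neither call was stable. W02A2.4 was at 3.63, 4.24 and 3.28 RPM in *mut-2* IPs and at 6.48, 9.78 and 15.8 RPM in *simr-1 mut-2* IPs. Y71A12B.19 was at 9.35, 8.72 and 6.63 RPM and then at 10.7, 27.2 and 28.2 RPM. The number called higher was 0 without *mut-2* IP replicate 1 or replicate 3, and 1 without *mut-2* IP replicate 2, *simr-1 mut-2* IP replicate 2 or *simr-1 mut-2* IP replicate 3. With the replicate number as a block in the fit it was 1.

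In the inputs, 64 of 226 tested pseudogenes were lower in *simr-1 mut-2* than in *mut-2* and 1 was higher, against 6.98% and 3.57% of all features. Without *mut-2* input replicate 1 or replicate 3 none was called higher, without *simr-1 mut-2* input replicate 1 it was 4 and without *simr-1 mut-2* input replicate 3 it was 2. K08B4.5 went from 1247, 1357 and 1232 RPM to 56.8, 78.9 and 65.7 RPM, by 4.56 ± 0.14 (SE, adjusted p 8.4e-07). The 14 pseudogenes with at least 1000 RPM in *mut-2* IPs were each called lower in these inputs, at a median of 58.0 RPM. This too is a description. IP was higher than input for 25 of 238 and lower for 44 in *simr-1 mut-2*, against 3.75% and 22.5% of all features. The difference in enrichment from *mut-2* was negative for 79 of 273, against 10.7% of all features. It was called positive for 0 by edgeR, against 0.114% of all features, where 3 were positive at an unadjusted p under 0.05, and for 0 by DESeq2. With the lysate as a replicate block it was called positive for 1, as it was without *mut-2* input replicate 3.

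Of the 24 pseudogenes that rose on HRDE-1 in *hrde-2*, 15 were called neither way in *mut-2* against wild-type inputs, 6 lower and 3 higher, beside 33.1% lower and 11.1% higher over all features. The 6 that stayed under 20 RPM were each called, 4 lower and 2 higher. The median of the 24 was 31.6 RPM in wild-type inputs, 33.8 RPM in *mut-2* inputs, 34.8 RPM in *mut-2; hrde-2* inputs and 37.0 RPM in *simr-1 mut-2* inputs. The median of the 241 that fell was 54.6 RPM in wild-type inputs and 4.76 RPM in *mut-2* inputs. C06A1.4 stood at 563, 562 and 581 RPM in *mut-2* inputs and 624, 630 and 653 RPM in *mut-2* IPs, over its wild-type inputs. It was the highest of all 304 in *mut-2; hrde-2* IPs, at 1008, 1019 and 1004 RPM. C14B1.7 (chromosome III, 3719904 to 3723597) was the highest in *simr-1 mut-2* inputs, at 721, 872 and 866 RPM, beside 439, 461 and 351 RPM in wild-type inputs. Each of these comparisons with wild-type inputs is a description.

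In the inputs of the single mutants most pseudogenes were called neither way. In *hrde-2*, 76 of 304 were lower and 11 higher than in wild-type inputs, against 10.0% and 4.06% of all features, and in *simr-1*, 83 were lower and 9 higher, against 13.2% and 1.19%, again a description. Y67D8C.23 (chromosome IV, 3051756 to 3052358) separated the mutants, at 1189, 892 and 1157 RPM in wild-type, 116, 222 and 227 RPM in *hrde-2* and 1834, 2403 and 1867 RPM in *simr-1*. Y37H9A.2 (chromosome I, 13779781 to 13781402), inside the span of ccct-1, was at 2089, 2802 and 1929 RPM in wild-type and at 6557, 5844 and 5803 RPM in *hrde-2*, while its IPs fell from 2699, 3058 and 2346 RPM to 715, 729 and 846 RPM. Both were chosen after their values were seen. The 3 tRNA pseudogenes were ZK380.t2, at a mean of 35.5 RPM in wild-type inputs and 98.6 RPM in IPs, C36C9.t1, at 14.1 and 3.93 RPM, and C36C9.t3, at 10.5 and 3.26 RPM, with exons of 68 to 73 bp.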

How the data were processed

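The authors removed adapters and low-quality reads with FASTX-Toolkit, removed reads of the size standards with cutadapt 3.4, mapped the rest with Bowtie2 2.5.0 and counted them per gene with featureCounts of Subread 2.0.1. The deposited tables hold expected counts for 31106 features, since a read on several genes was split between them, and 10.4% of non-zero values were not whole. Values were rounded to whole numbers for the tests. RPM was taken over all counts of a library. Header and label disagree on the replicate number of the wild-type replicate 2 tables (1 in the header), and the label was followed. Biotypes came from Ensembl 115 (WBcel235), which lists 30911 of the features, and symbols from RefSeq, which matched 2102 of 2102 pseudogenes. Coordinates are those of the tables. The miRNA genes meant as markers of other small RNAs had 0 entries in the tables.

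Features that reached 10 counts in 3 or more of the libraries compared were tested with edgeR 4.0.16 in R 4.3.3 (TMM normalization, quasi-likelihood F test, Benjamini-Hochberg adjustment over all features tested), within the groups compared. Calls needed a 2-fold change and an adjusted p of at most 0.05. Differences in enrichment were interactions of IP and genotype. Ratios had 1 RPM added. The fits were tested on simulated data with known changes. Plots and tables used Python 3.11.15, numpy 2.4.6, pandas 2.3.3 and matplotlib 3.10.9.

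Input and IP of one number come from one lysate, by the authors' methods, and 16 of 18 of their correlations of deviations from the group mean were over 0.1 (from -0.003 to 0.523). Between genotypes 5 of 30 were (from -0.434 to 0.403), so numbers do not pair genotypes. The main fits of IP against input and of enrichment had no lysate term, so they ignore the pairing of input and IP. The replicate block took it into account. Alternatives were DESeq2 1.42.0, library size scaling, no filter, a replicate block, each library left out, members with no exon overlap and members of at least 20 RPM, a term for a suffix in the library names and, for shares, other denominators.

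The members and lists were chosen with earlier results of these data known. Members named in the text are the 8 highest in wild-type IPs and in inputs, the 3 largest rises and falls of each comparison of IPs (called, at least 10 RPM in the higher group, no overlap), the 3 highest and lowest IP-to-input ratios in *hrde-2* and the 3 on each side of the threshold. Others were chosen after their values were seen. Base composition and sequences were not analysed here.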

Additional observations from a re-analysis of the deposited data

Results flagged for a closer look

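Differences in enrichment between genotypes, tested as an interaction, were flagged for the pseudogenes as a group. In *hrde-2* against wild-type 215 were less and 30 more enriched, beside 36.1% and 33.7% of all features. In *mut-2; hrde-2* against *mut-2* 119 were less and 1 more enriched, beside 21.4% and 1.74%. In *simr-1 mut-2* against *mut-2* 79 were less and 0 more enriched by edgeR, beside 10.7% and 0.114%, with 3 more enriched at an unadjusted p under 0.05 and 0 by DESeq2. The first contrast includes the inputs that chose the genes, and the last also compares *mut-2* alleles.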

How the results depend on the processing

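Of the 27 rises and falls named by rule in the comparisons of IPs, none changed sign under an alternative. The call was lost in 10 of their fits with a library left out and kept in 143. With a replicate block it was lost for 1 and kept for 26. The other named values were not compared between alternatives. Of the counts of pseudogenes called, those of pseudogenes lower moved by over 1.5 times in only 1 case, when *mut-2* input replicate 2 was left out. DESeq2 called 2 higher in *mut-2; hrde-2* against *mut-2* IPs. Library size scaling gave 69 higher in *simr-1* IP against input, 3 in *mut-2; hrde-2* against *mut-2* IPs and, in inputs, 7 for *mut-2* against wild-type, 11 for *mut-2; hrde-2* and 6 for *simr-1 mut-2* against *mut-2*. It moved the median of all features in *hrde-2* against wild-type IPs from -0.42 to -0.10 and in *mut-2* against wild-type IPs from -0.32 to 0.18. Without a filter on low counts, 16 were higher in *mut-2; hrde-2* IP against input, 3 in *mut-2; hrde-2* against *mut-2* IPs, and the enrichment difference was positive for 2 in *mut-2; hrde-2* and 1 in *simr-1 mut-2*. Among members of at least 20 RPM, 10 were higher in *mut-2* against wild-type IPs, 1 in *simr-1 mut-2* against *mut-2* IPs, and, in inputs, 2 in *mut-2* against wild-type and 0 in *simr-1 mut-2* against *mut-2*.

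With a replicate block, the number higher in *simr-1 mut-2* against *mut-2* was 1 in IPs (where Y71A12B.19 was at a log2 value of 0.98) and 0 in inputs, and the enrichment difference was positive for 1. The block moved no other count by over 1.5 times.

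With each library left out in turn, the number lower in *mut-2* IP against input ran from 23 to 34. The number higher ran from 13 to 27 in *hrde-2* against wild-type IPs, 9 to 17 in *mut-2* against wild-type IPs, 1 to 2 in *mut-2; hrde-2* against *mut-2* IPs, 0 to 2 in *simr-1 mut-2* against *mut-2* IPs, 1 to 5 in *mut-2* against wild-type inputs and 0 to 4 in *simr-1 mut-2* against *mut-2* inputs. For the enrichment difference it ran from 1 to 2 in *mut-2; hrde-2* and 0 to 1 in *simr-1 mut-2*.

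With only the members whose exons overlap no other gene, wild-type shares were 8.05% (input) and 10.8% (IP), *hrde-2* shares 7.44% and 1.98%, *simr-1* shares 7.11% and 7.21%, *mut-2* shares 1.34% and 5.66%, *mut-2; hrde-2* shares 1.25% and 1.08%, and *simr-1 mut-2* shares 0.887% and 1.34%. With structural RNA left out of the total, input shares were 11.9% in wild-type, 11.9% in *hrde-2*, 11.3% in *simr-1*, 2.46% in *mut-2*, 1.27% in *simr-1 mut-2* and, for *mut-2; hrde-2*, 1.96%. IP shares were then 9.23% in *simr-1*, 7.32% in *mut-2* and, for *mut-2; hrde-2*, 1.15%. Without Y17D7C.3, the member with the highest counts, the wild-type input share was 9.27%. The cause of these differences was not tested beyond the construction of each alternative.

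Depth limits the low pseudogenes most: 38 of the 304 did not pass the filter for *mut-2* IP against input and 73 for *mut-2; hrde-2*, and no fold change is given for those.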

Other observations

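In the *hrde-2* mutant, replicate 1 stood apart from the other replicates on 6 pseudogenes in input and IP alike. F37H8.2, C06C3.5, F47B7.6 and Y71A12B.15 were at least 2-fold below both others, and H06O01.4 and T11G6.7 at least 2-fold above (with 1 RPM added). F47B7.6 was at 11.2, 151 and 140 RPM in the *hrde-2* inputs and at 2.82, 26.6 and 32.8 RPM in the IPs. F37H8.2 was at 4520, 10440 and 10659 RPM in the inputs and at 808, 1780 and 1816 RPM in the IPs. In the 3 genotypes with a *mut-2* mutation no replicate stood apart in this way on any of the 304, and in wild-type and *simr-1* at most 2 pseudogenes did so for a replicate and direction.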
